A study of Mus musculus with 12 samples.

Results

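The genes described here are 10 members of the transforming growth factor beta (TGF-beta) pathway: the ligands Tgfb1, Tgfb2, Tgfb3 and Inhba, the latency proteins Ltbp1 and Ltbp2, the receptors Tgfbr1 and Tgfbr2, the intracellular inhibitor Smad7 and the secreted response gene Tgfbi. They were listed by name, with no threshold on a value but with earlier results of these data known. Each was read from the probe set annotated to it. Each of the 10 members had 1 probe set, so no choice between probe sets arose, and they are 10 of the 19938 genes measured. All 10 passed the filter on dim genes, which kept the 13044 genes that lay above the median of at least 1 array.

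The series profiled RNA of mouse cells on 12 Affymetrix arrays while fibroblasts were turned into pluripotent cells, with Mbd3, part of the NuRD chromatin-remodelling and deacetylase complex, as the gene under study. There were 3 arrays of mouse embryonic fibroblasts (MEF), 5 of MEF treated with doxycycline (DOX), which switches on a transgene that carries Oct4, Sox2, Klf4 and Myc (OSKM), and 4 of pluripotent lines, which were induced pluripotent stem cells (iPSC) or embryonic stem cells (ESC). Mbd3+/+ (WT) cells gave 6 arrays: MEF, days 4, 8 and 11 of DOX, iPSC and ESC. Mbd3flox/- (flox/-) cells, with a floxed and a deleted copy of Mbd3, gave 4 arrays: MEF, days 4 and 8 of DOX, and iPSC. Mbd3-/- (-/-) cells gave MEF and ESC, and the labels of these MEF name no OSKM transgene. The medium named for all the cells held LIF and a pair of kinase inhibitors (2i), and the cells stood on irradiated DR4 feeder MEF, so RNA of feeder fibroblasts can be in any sample. Every combination of genotype and stage is 1 array, and no label says how many cultures or embryos lie behind it.

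TGF-beta is made as a precursor whose cut prodomain stays wrapped around the growth factor and keeps it silent. Latent TGF-beta binding proteins (LTBP) join this complex and fix it to fibrils of the extracellular matrix, from which integrins or proteases release the active factor. The freed ligand brings together type II and type I receptor kinases, which phosphorylate Smad2 and Smad3, and Smad7 is induced by the signal and blocks the receptor in turn. Activins and Nodal use related receptors and the same Smads. In fibroblasts this pathway drives matrix production and the mesenchymal state, and blocking it is known to favour reprogramming.

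Marker genes gave the labels a first check. The mean log2 signal of 9 fibroblast markers was 11.03 to 11.60 in MEF and 6.22 to 8.72 in pluripotent lines, and that of 9 pluripotency markers was 5.43 to 5.58 in MEF and 11.63 to 11.73 in pluripotent lines. The WT day 8 array stood apart from the other DOX arrays past day 4. Its pluripotency markers had a mean of 6.66, against 10.88 at WT day 11 and 11.73 at flox/- day 8. On that list it was near WT day 4 (6.82) and flox/- day 4 (7.30). Its 8 epithelial markers had a mean of 10.92, above each of the other arrays, with WT day 11 next at 10.5. The WT day 8 and WT ESC arrays came from an earlier series. The labels of the former name both 4 and 8 days, of which its title gives 8. The WT ESC array had a mean of 9.71 over 6 smooth muscle markers, against 6.76 to 7.02 on the other pluripotent arrays. Macrophage markers (10 genes) ranged from 10.31 in WT MEF to 7.06 in -/- MEF.

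Promoter windows are shown for 3 members that fell in the DOX and in the pluripotent arrays and that differ in base composition. RefSeq (GRCm38.p6) windows, from 250 bases before to 50 bases after an annotated transcript start, matched 8 of the 10 members with 10 windows. The start used lies at the edge of the gene's annotated span for Tgfb1, 67 bases inside it for Ltbp2 and 7595 bases inside it for Inhba, whose window is thus not at the outermost end of the gene. Capitals mark matches, on either strand, to CAGAC (a Smad-binding element), GGGCGG (the GC box bound by Sp1) and TATAAA (the TATA box). The window of Tgfb1 is chr7:25686752-25687051 on the plus strand, that of Inhba is chr13:16011601-16011900 on the plus strand and that of Ltbp2 is chr12:84876442-84876741 on the minus strand.
Tgfb1: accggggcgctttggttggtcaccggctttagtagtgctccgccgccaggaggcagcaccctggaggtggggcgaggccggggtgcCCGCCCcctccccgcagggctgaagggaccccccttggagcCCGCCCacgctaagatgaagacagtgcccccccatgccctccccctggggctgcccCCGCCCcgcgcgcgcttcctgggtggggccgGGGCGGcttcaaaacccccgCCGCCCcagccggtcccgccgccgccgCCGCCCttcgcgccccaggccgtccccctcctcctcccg
Inhba: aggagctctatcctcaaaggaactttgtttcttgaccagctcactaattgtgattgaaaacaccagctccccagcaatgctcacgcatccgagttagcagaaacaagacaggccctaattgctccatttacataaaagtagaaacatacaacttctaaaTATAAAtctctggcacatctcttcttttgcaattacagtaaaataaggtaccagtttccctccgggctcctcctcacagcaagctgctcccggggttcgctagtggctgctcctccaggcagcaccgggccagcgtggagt
Ltbp2: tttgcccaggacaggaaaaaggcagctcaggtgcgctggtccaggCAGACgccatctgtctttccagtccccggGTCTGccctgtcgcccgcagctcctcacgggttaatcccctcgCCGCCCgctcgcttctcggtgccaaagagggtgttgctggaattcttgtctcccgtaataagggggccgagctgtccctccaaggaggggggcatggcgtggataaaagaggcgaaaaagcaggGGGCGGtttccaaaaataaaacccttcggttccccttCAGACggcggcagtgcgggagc
The Tgfb1 window holds 77% G and C and 6 GC boxes, with neither of the other motifs. That of Inhba, the gene of the activin A subunit, is 47.7% G and C and holds 1 TATA box, which begins 91 bases before that internal start. The Ltbp2 window is 61% G and C, with 3 CAGAC matches and 2 GC boxes. The median over all 32851 windows of the table was 52.7% G and C. CAGAC was present in 7 of the 10 member windows and in 49.6% of all windows, GGGCGG in 4 and in 35.7%, and TATAAA in 2 and in 13.6%. The cyclic-AMP response element TGACGTCA was in 1 member window, that of Ltbp1, and in 1.79% of all. Neither the AP-1 motif TGANTCA (7.81% of all windows) nor the Smad palindrome GTCTAGAC (0.213%) was in a member window. These are matches of letters and not measured binding sites.

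Signal was compared first between the 4 pluripotent and the 3 MEF arrays, which asks what the pathway looks like at both ends of reprogramming. Of the 10 members, 9 fell and 1, Smad7, did not pass the test. The falls ran from 1.99-fold for Tgfbr1 to 25.7-fold for Tgfb3, and 2 arrays moved the size of some of them. Without WT ESC the falls were 49.1-fold for Tgfb3, 29.4-fold for Inhba and 9.39-fold for Tgfb2, and without flox/- iPSC they were 14.8-fold for Tgfb3 and 8.92-fold for Inhba, all still called. The median difference over the members was -2.73 on the log2 scale, where 1 unit is a 2-fold change, against 0.03 over all genes tested. A lower signal was called (limma, Benjamini-Hochberg adjusted p under 0.05) for 29.9% of all genes in this comparison, so the state change was broad. In all 9 the highest pluripotent array lay below the lowest MEF array, as it did for 30.8% of all genes. In such bulk samples, fewer cells of a type and less RNA per cell cannot be told apart. Arrays of different genotype or source stand as replicates here, so the p-values measure the spread between these arrays alone.

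**Figure D1:**
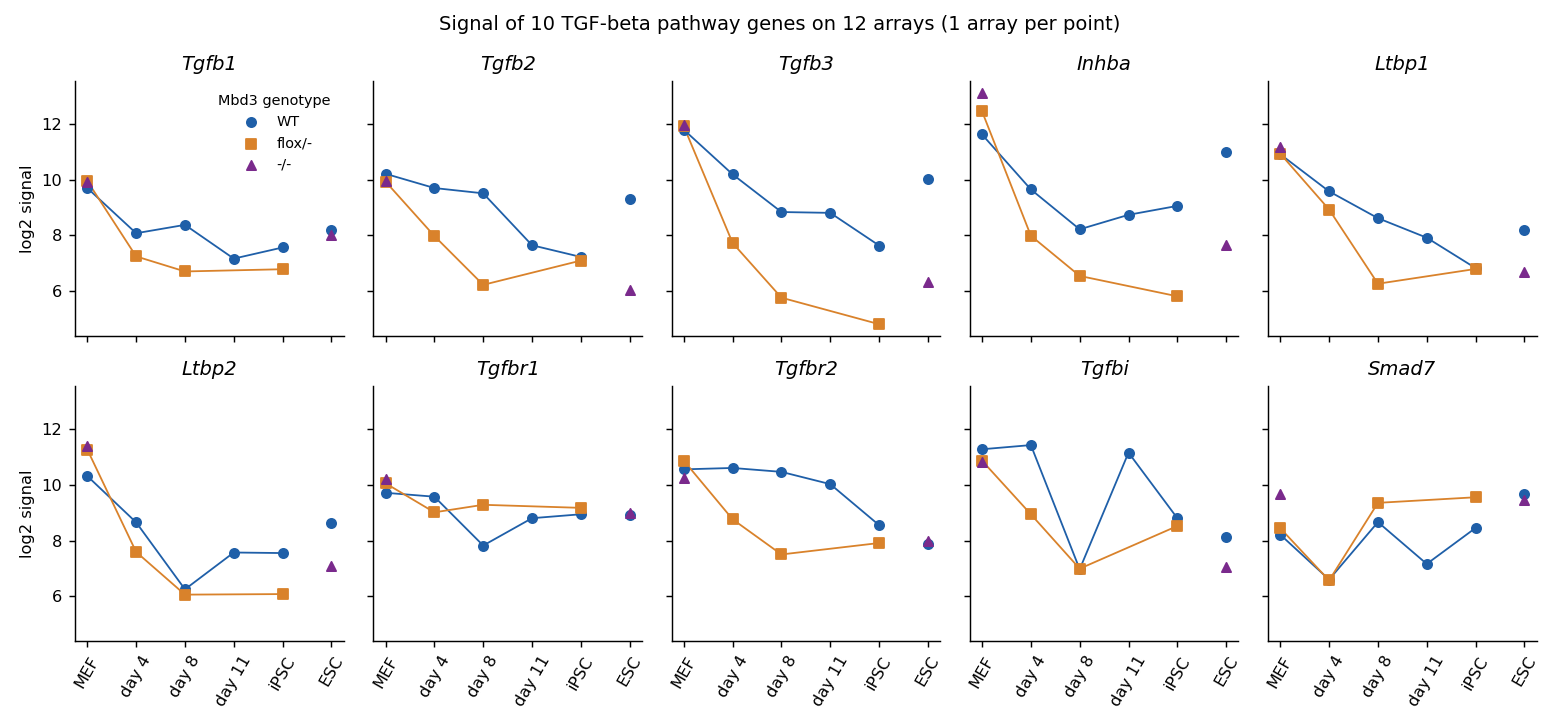
Log2 signal of each member (vertical axis) by stage (horizontal axis), 1 point per array, for WT, flox/- and -/- cells; lines join the stages from MEF to iPSC within WT and within flox/- cells. For Tgfb3, Inhba and Ltbp1 the MEF points lie between 10.91 and 13.12, and Smad7 is lowest at day 4 in both genotypes (6.60 and 6.57).

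Among the ligands, Tgfb3 (chr12:86056743-86079041, GRCm38.p6) had the largest fall of the members. Its log2 signal was 11.79 in WT, 11.91 in flox/- and 11.96 in -/- MEF, and 7.64 in WT iPSC, 4.82 in flox/- iPSC, 10.01 in WT ESC and 6.33 in -/- ESC. The MEF arrays lay within a narrow band, while the pluripotent arrays spread widely, with WT ESC the highest and flox/- iPSC the lowest. The difference was -4.68 ± 1.07 (SE, limma adjusted p = 0.007, 3 and 4 arrays). Inhba (chr13:16004256-16031609), whose product forms activin A, showed the same high WT ESC value. It was at 11.62, 12.45 and 13.12 in WT, flox/- and -/- MEF, and at 9.06 in WT iPSC, 5.82 in flox/- iPSC, 10.99 in WT ESC and 7.67 in -/- ESC. Its fall was 16.1-fold (log2 difference -4.01 ± 1.11, SE, limma adjusted p = 0.0156), and without -/- MEF, the highest of all 12 arrays, the adjusted p was 0.0541.

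Tgfb2 (chr1:186622787-186709697), an isoform needed for heart development, was at 10.21, 9.93 and 9.94 in WT, flox/- and -/- MEF. It was at 7.23 in WT iPSC, 7.10 in flox/- iPSC, 9.31 in WT ESC and 6.06 in -/- ESC, so that WT ESC came within 1 log2 unit of the MEF. The fall was 6.08-fold (-2.60 ± 0.67, limma adjusted p = 0.0117). Tgfb1 (chr7:25687002-25705077), the isoform made by most cell types including blood cells, varied least among the 4 ligands over the 12 arrays, by 9.45-fold from lowest to highest. It was at 9.70, 9.95 and 9.91 in the MEF, against 7.57 in WT iPSC, 6.79 in flox/- iPSC, 8.20 in WT ESC and 8.03 in -/- ESC, a fall of 4.61-fold (-2.20 ± 0.32, limma adjusted p = 0.000899). The mean of the macrophage markers was 10.31, 9.43 and 7.06 in WT, flox/- and -/- MEF and 5.51 to 6.90 on the pluripotent arrays, and its part in the Tgfb1 difference was not tested.

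The latency proteins fell with the ligands. Ltbp1 (chr17:75005480-75392512), which links latent TGF-beta to the matrix, was at 10.91, 10.93 and 11.16 in WT, flox/- and -/- MEF. On the pluripotent arrays it was at 6.83 in WT iPSC, 6.80 in flox/- iPSC, 8.21 in WT ESC and 6.70 in -/- ESC, where only WT ESC stood off from the other three. The fall was 14.6-fold (-3.86 ± 0.36, limma adjusted p = 0.00013). Ltbp2 (chr12:84783212-84876558) is a matrix protein of the same family that does not bind latent TGF-beta itself. It was at 10.31, 11.26 and 11.40 in the MEF and at 7.55, 6.08, 8.62 and 7.10 in WT iPSC, flox/- iPSC, WT ESC and -/- ESC, a fall of 12.6-fold (-3.65 ± 0.57, limma adjusted p = 0.00117).

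Both receptors fell, Tgfbr2 by more than Tgfb1 and Tgfbr1 by less than every other called member, and neither was higher in WT ESC than on all other pluripotent arrays. Tgfbr2 (chr9:116087695-116175363), the type II kinase that binds the ligand first, was at 10.55, 10.86 and 10.24 in the MEF and at 8.55 in WT iPSC, 7.91 in flox/- iPSC, 7.88 in WT ESC and 7.99 in -/- ESC. It fell 5.52-fold (-2.47 ± 0.21, limma adjusted p = 9.3e-05). Tgfbr1 (chr4:47353222-47414926), the type I kinase that phosphorylates the Smads, had the smallest range over the 12 arrays, 5.24-fold. It was at 9.71, 10.05 and 10.21 in the MEF and at 8.94, 9.17, 8.90 and 8.98 in WT iPSC, flox/- iPSC, WT ESC and -/- ESC, a fall of 1.99-fold (-0.99 ± 0.15, limma adjusted p = 0.000919). Both receptors therefore kept signals above the median of the array, 6.31, on every array.

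Tgfbi (chr13:56609586-56639359), a matrix protein named for its induction by TGF-beta, was at 11.27, 10.86 and 10.80 in the MEF and at 8.80, 8.52, 8.13 and 7.05 in WT iPSC, flox/- iPSC, WT ESC and -/- ESC. This was a fall of 7.22-fold (-2.85 ± 0.40, limma adjusted p = 0.000693). Smad7, the other member that the signal itself induces, did not follow it. It was at 8.21, 8.44 and 9.67 in WT, flox/- and -/- MEF and at 8.45, 9.55, 9.68 and 9.46 in WT iPSC, flox/- iPSC, WT ESC and -/- ESC. The groups overlapped and the difference was 0.51 ± 0.42 (limma adjusted p = 0.326).

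**Figure D2:**
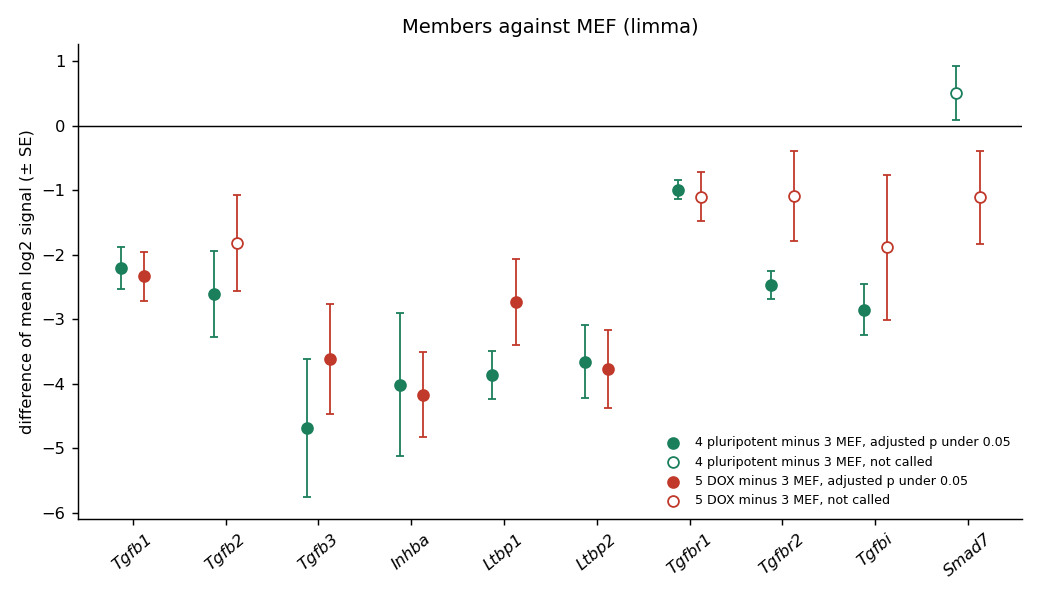
Difference of mean log2 signal from the 3 MEF arrays (vertical axis) for each member (horizontal axis), for 4 pluripotent and 5 DOX arrays; bars are ± SE from limma and filled points have an adjusted p under 0.05. Tgfb3, Inhba and Ltbp2 lie at or below -3.62 in both comparisons, and Smad7 is at 0.51 in pluripotent and -1.11 in DOX arrays.

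Marker lists moved with the members between MEF and pluripotent arrays: 9 of 9 fibroblast, 5 of 6 smooth muscle and 9 of 10 macrophage markers fell and 7 of 8 epithelial markers rose (limma). Of 4 kept endothelial markers 2 rose and 1 fell, and that list's mean was at 5.97 to 6.13 in MEF and 6.35 to 6.63 in pluripotent lines. The smooth muscle and fibroblast markers also differed among the pluripotent arrays as some members did. On WT ESC, Inhba, Tgfb1, Tgfb2, Tgfb3, Ltbp1, Ltbp2 and Smad7 were at their highest among the pluripotent arrays. The contractile genes Cnn1 and Tagln were at 11.21 and 10.71 there, against at most 6.73 and 7.05 on the other 3. The whole smooth muscle list was at 6.76 to 9.71 on the pluripotent arrays and at 10.27 to 10.71 in MEF. The fibroblast list was at 8.72 in WT iPSC, 7.96 in WT ESC, 7.66 in -/- ESC and 6.22 in flox/- iPSC. Tgfb1, Tgfb3, Inhba and Ltbp2 were at their lowest of the 4 in flox/- iPSC. Tgfb2, Ltbp1 and Tgfbi were lowest in -/- ESC, Tgfbr1 and Tgfbr2 in WT ESC, and Smad7 in WT iPSC. Of the 9 fibroblast markers, 5 were higher on WT ESC than on WT iPSC and 4 were lower. The part of other cells in these member values was not tested. Without WT ESC all 9 falls were still called.

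**Figure D3:**
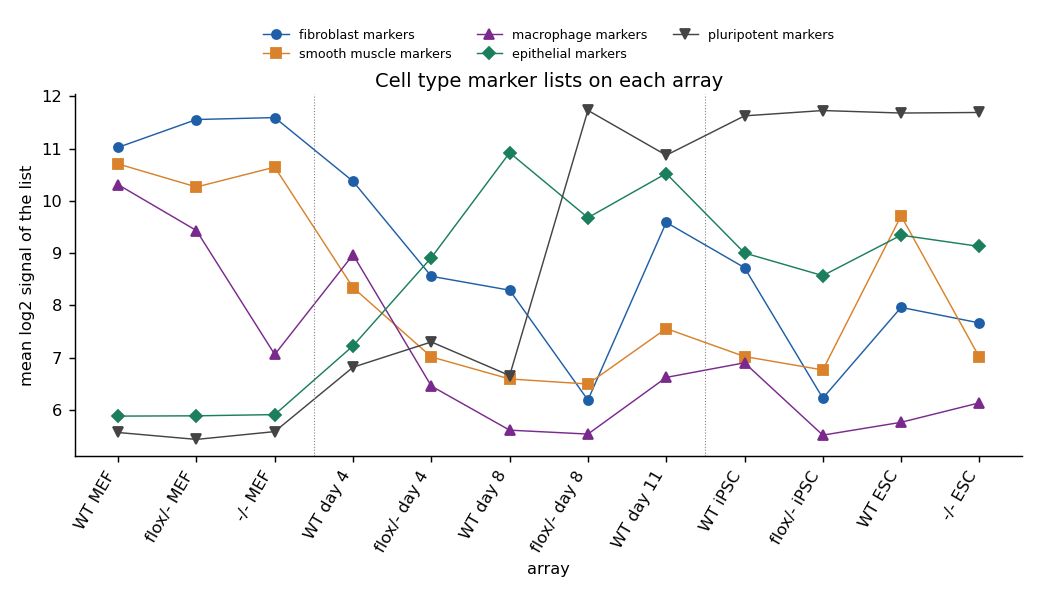
Mean log2 signal of 5 cell type marker lists (vertical axis) on each of the 12 arrays (horizontal axis; dotted lines part MEF, DOX and pluripotent arrays; joining lines only guide the eye). The smooth muscle mean is 9.71 on WT ESC, the pluripotency mean is 6.66 on WT day 8, and the macrophage mean runs from 10.31 to 7.06 over the MEF arrays.

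The DOX arrays were then compared with the same 3 MEF arrays, so both comparisons share their controls. Of the 10 members, 5 fell, against 7.67% of all genes. Their log2 differences were -4.17 ± 0.66 for Inhba, -3.77 ± 0.60 for Ltbp2, -3.62 ± 0.86 for Tgfb3, -2.74 ± 0.66 for Ltbp1 and -2.33 ± 0.38 for Tgfb1 (SE, limma, 3 and 5 arrays). Their limma adjusted p-values were 0.0125, 0.0128, 0.0347, 0.0365 and 0.0133 in that order. DOX arrays of days 4, 8 and 11, from WT and flox/- cells, stood as replicates in this fit. The SE and p-values thus take in the course over days, and the -/- MEF array had no DOX array to match it. Tgfb2 (-1.81, adjusted p = 0.128), Tgfbr1 (-1.10, 0.0823), Tgfbr2 (-1.08, 0.297), Tgfbi (-1.88, 0.263) and Smad7 (-1.11, 0.304) did not pass. The median difference was -2.11 over the members and 0.06 over all genes. For 7 members, Tgfb2 and Tgfbr1 besides the 5 called, every DOX array lay below every MEF array, which held for 15.2% of all genes. Under DOX 3 of 9 fibroblast and 5 of 6 smooth muscle markers fell and 5 of 8 epithelial markers rose, the macrophage list was at 5.53 to 8.97 without a call, and their part in the member differences was not tested. The member calls rest on few arrays. Without flox/- MEF none of the 5 was called (limma adjusted p of 0.0677 for Inhba to 0.133 for Ltbp1). In that fit 150 genes were called in place of 1768, the fewest on leaving out 1 array. The differences themselves moved little, to -4.14 for Inhba, -3.64 for Ltbp2, -3.6 for Tgfb3, -2.77 for Ltbp1 and -2.29 for Tgfb1. Tgfb3 and Ltbp1 were also lost without WT MEF, -/- MEF, WT day 11 or flox/- day 4, and Tgfb1 (0.0506) and Ltbp2 (0.0510) without -/- MEF. Over all genes, 414, 402, 659 and 688 calls were made without these 4 arrays in turn. Without WT day 8, 3165 genes and 6 members were called, Tgfbr1 being the sixth (adjusted p = 0.0391), and without WT day 4 Tgfbr1 also passed (0.0495). Without flox/- day 8 the Tgfb3 difference was -2.99, still called. With genotype as a term, 2 members, Tgfb1 and Inhba, were called, and with no filter on dim genes Ltbp1 was lost (0.0518).

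Within the DOX arrays the members followed separate courses. Tgfb1 was at 8.08, 8.38 and 7.17 at WT days 4, 8 and 11 and at 7.25 and 6.71 at flox/- days 4 and 8. Inhba was at 9.65, 8.22 and 8.74 at WT days 4, 8 and 11 and at 7.99 and 6.55 at flox/- days 4 and 8. By day 4, Tgfb1 had covered 76.1% of the difference between MEF and iPSC in WT and 85.2% in flox/- cells, and Inhba 76.7% and 67.3%. These shares are of unlike totals: Inhba fell by 1.97 of 2.56 log2 units in WT and by 4.46 of 6.63 in flox/- cells. Tgfb3 was at 10.19, 8.84 and 8.81 over the WT days and at 7.73 and 5.77 over the flox/- days, so that it had covered 38.5% of its difference by day 4 in WT and 59.0% in flox/- cells. The latency protein Ltbp1 was lower on each later DOX array, at 9.58, 8.62 and 7.92 over the WT days and at 8.93 and 6.27 over the flox/- days. Ltbp2 was at 8.65, 6.25 and 7.57 over the WT days and at 7.59 and 6.06 over the flox/- days. Each of these values is 1 array, with no test behind the order.

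Tgfbr2 stayed near its MEF level on all 3 WT days of DOX, and Tgfb2, Tgfbi and Tgfbr1 did so on some of them. Tgfbr2 was at 10.60, 10.46 and 10.02 at WT days 4, 8 and 11, beside 10.55 in WT MEF, and at 8.76 and 7.50 at flox/- days 4 and 8. Tgfb2 was at 9.70 and 9.51 at WT days 4 and 8 and at 7.65 at day 11, against 7.98 and 6.23 at flox/- days 4 and 8. The response gene Tgfbi was at 11.42 at WT day 4 and 11.15 at WT day 11, near WT MEF at 11.27, but at 6.97 on the WT day 8 array that stood apart, and at 8.94 and 6.99 at flox/- days 4 and 8. Tgfbr1 was likewise lowest at WT day 8, at 7.82, and between 8.80 and 9.57 on the other DOX arrays. The fibroblast list was at 10.38, 8.29 and 9.59 over the WT days and at 8.56 and 6.19 over the flox/- days, in which WT day 8 was again below WT days 4 and 11. Its genes were not uniform there. On WT day 8 Dcn (12.48) and S100a4 (10.84) were above WT days 4 and 11, and Twist2 (7.60) lay between them. The others were below both, such as Lum (4.80) and Pdgfra (5.90). The part of the fibroblast genes in these member values was not tested.

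Smad7 took a course of its own. It was at 6.60 and 6.57 at day 4 in WT and flox/- cells, below MEF by 1.61 and 1.87 on the log2 scale, and then at 8.66 at WT day 8, 7.16 at WT day 11 and 9.35 at flox/- day 8. In iPSC it was at 8.45 in WT and 9.55 in flox/- cells. In the limma fit of the 8 arrays of the 4 stages that both genotypes have, with genotype as a term, day 4 against MEF gave -1.74 ± 0.33 (adjusted p = 0.123) and iPSC against day 4 gave 2.42 ± 0.33 (adjusted p = 0.211). No gene passed in either contrast of this fit (0% called), with 2659 and 1917 of 13044 at an unadjusted p under 0.05. All 10 members had negative day 4 differences, from -3.21 ± 0.94 for Inhba (adjusted p = 0.173) to -0.59 for Tgfbr1. Their median was -1.70, beside 0.05 over all genes. The fit has 3 residual degrees of freedom and takes in the day 8 pair, whose WT array stood apart. Left without both day 8 arrays, or without either, it called 824 genes between iPSC and day 4, 2 of them members: Smad7 (2.42, adjusted p = 0.0362) and Ltbp1 (-2.44, adjusted p = 0.0231).

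Between DOX and pluripotent arrays none of the members passed, and 0.00767% of all genes did, which is 1 gene, with 2052 at an unadjusted p under 0.05 (limma). The largest differences were -1.62 ± 0.61 for Smad7, lower under DOX (adjusted p = 0.290), and 1.38 ± 0.61 for Tgfbr2, higher under DOX (adjusted p = 0.313). Without flox/- day 8, 1315 genes passed, among them Smad7 (-2.04, adjusted p = 0.0402) and Tgfbr2 (1.88, adjusted p = 0.0280). In the order of the 3 states, the mean was highest in MEF for the 9 members that fell in pluripotent lines, and the DOX and pluripotent levels were not told apart for any of the 10 with all arrays in.

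Counting single steps at 2-fold shows when the members moved, with 1 array on each side and so no test. From MEF to day 4, 6 members were at least 2-fold lower in WT cells (6.94% of all genes) and all 10 in flox/- cells (15.1%). From day 4 to day 8, 5 were lower and 1, Smad7, higher in WT cells (9.8% of all genes lower, 10.6% higher). In flox/- cells 7 were lower and Smad7 again higher (11.8% lower, 7.44% higher). The 1 rise is near the share over all genes. From WT day 4 to WT day 11, which leaves out the WT day 8 array, 4 members were lower (5.67%). The last step differed: from WT day 11 to WT iPSC 4 members were lower (Tgfbi by 5.10-fold, Tgfbr2 by 2.77-fold, Tgfb3 by 2.24-fold and Ltbp1 by 2.13-fold) and Smad7 was higher (5.92% of all genes lower, 3.2% higher). From flox/- day 8 to flox/- iPSC only Tgfbi was 2-fold apart, and it was higher (2.68% of all genes either way). At flox/- day 8 the pluripotency markers were already at 11.73, as in flox/- iPSC.

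The genotypes were compared stage by stage. The MEF of WT and flox/- cells were within 2-fold for all 10 members (4.12% of all genes were 2-fold apart). At day 4 all 10 were lower in flox/- cells, Smad7 by only 1.02-fold. The median log2 difference was -1.36 over the members and 0.08 over all genes. By at least 2-fold, 6 members were lower (8.04% of all genes lower): Tgfbi by 5.59-fold, Tgfb3 by 5.53-fold, Tgfbr2 by 3.59-fold, Tgfb2 by 3.30-fold, Inhba by 3.17-fold and Ltbp2 by 2.08-fold. The fibroblast markers were lower there too, at 8.56 against 10.38, and the macrophage markers at 6.45 against 8.97. At day 8, 6 members were lower and 1, Tgfbr1, higher in flox/- cells (18.7% of all genes lower, 13.1% higher), against the WT array that stood apart. In iPSC, Inhba (9.42-fold), Tgfb3 (7.07-fold) and Ltbp2 (2.76-fold) were lower and Smad7 (2.14-fold) higher in flox/- cells. Of all genes 3.2% were lower and 1.88% higher, and the fibroblast list was at 6.22 against 8.72. The flox/- iPSC signals of Inhba (5.82), Tgfb3 (4.82) and Ltbp2 (6.08) lay below the array median, 6.31, so these folds rest on low signals. The part of the marker genes in these differences was not tested.

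Over all 4 shared stages no difference between flox/- and WT was called for any member or any gene (0% of 13044, limma, with stage as a block and 852 genes at an unadjusted p under 0.05). The member differences ran from -2.06 ± 0.58 for Tgfb3 (adjusted p = 0.693) to 0.50 for Smad7, and 8 of 10 were negative, Tgfbr1 at 0.37 being the other positive one. Their median was -0.77, beside 0.02 over all genes. Inhba was at -1.44, Tgfb2 at -1.35 and Tgfbr2 at -1.28. Each step of leaving out an array or changing the processing kept these 10 signs.

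The -/- cells have no DOX arrays. In MEF, 3 members were at least 2-fold higher in -/- than in WT cells (3.06% of all genes higher): Inhba by 2.82-fold, Smad7 by 2.75-fold and Ltbp2 by 2.13-fold. In ESC, 6 were at least 2-fold lower in -/- than in WT cells (6.06% of all genes lower), from Tgfb3 (12.8-fold) and Inhba (10.02-fold) through Tgfb2 (9.51-fold), Ltbp2 (2.87-fold) and Ltbp1 (2.84-fold) to Tgfbi (2.11-fold). The WT ESC array in that comparison is the one with the high smooth muscle genes. Against it, WT iPSC of the same Mbd3 genotype were also at least 2-fold lower in 6 members (2.21% of all genes lower): Tgfb3, Tgfb2, Inhba, Ltbp1, Smad7 and Ltbp2. In the limma fit of the 7 arrays without DOX, none of the members and no gene passed between -/- and WT (0% called, 907 genes at an unadjusted p under 0.05), and Tgfb3 was at -2.02 ± 1.03, Tgfb2 at -1.64 (both adjusted p = 0.686) and Tgfbi at -0.74 ± 0.22.

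Other genes of the pathway were read from lists by role. Among 7 further ligands that were kept, 4 rose and 2 fell between MEF and pluripotent arrays (limma), with a median difference of 2.01 beside 0.03 over all genes. Over all genes, 30.1% were called higher and 29.9% lower in this comparison, and 5.88% higher and 7.67% lower under DOX, against which each list count that follows is to be read. The largest rises were of Lefty2, a secreted Nodal antagonist (28.6-fold, adjusted p = 0.000532), Gdf3, a Nodal-like factor (28.2-fold, adjusted p = 1.23e-06), and Nodal itself (17.0-fold, adjusted p = 3.39e-06). Nodal was at 5.92 to 6.04 in MEF and at 9.69 to 10.20 on the pluripotent arrays. It was at 9.87 at flox/- day 8 and 8.15 at WT day 11, but at 6.24 at WT day 8. Under DOX only Gdf11 passed, with a fall of 2.75-fold (adjusted p = 0.0359). Between MEF and pluripotent arrays the other ligand of the list that rose was Lefty1, and Inhba and all 3 TGF-beta ligands fell.

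**Figure D4:**
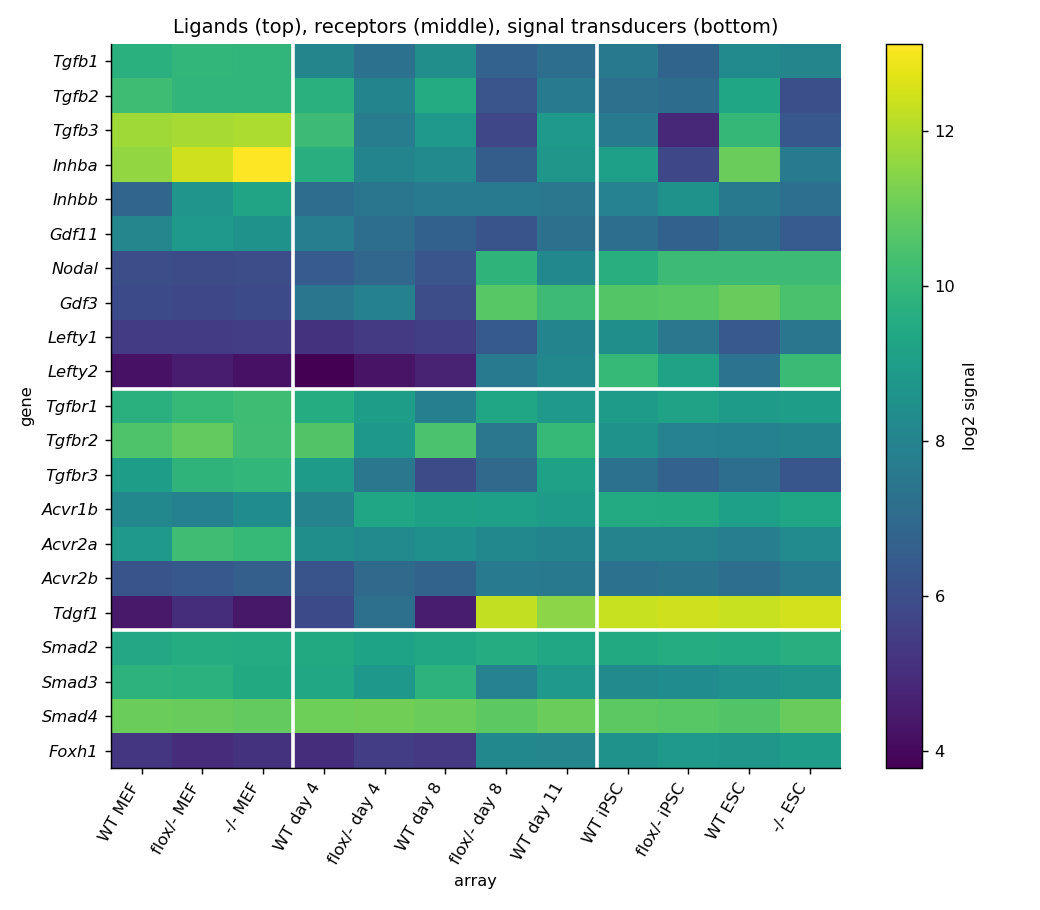
Log2 signal (colour) of ligands, receptors and Smad pathway genes (rows) on the 12 arrays (columns), with white lines between roles and between MEF, DOX and pluripotent arrays; colours compare 1 gene across arrays and not genes with each other. Tgfb3 and Inhba are brightest in MEF, and Nodal, Gdf3, Lefty2, Tdgf1 and Foxh1 are brighter than in MEF on the pluripotent arrays, at flox/- day 8 and at WT day 11.

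The receptor list had 3 rises and 4 falls among 9 kept genes, near the shares over all genes, with a median of -0.49. Tdgf1, the Nodal co-receptor Cripto and one of the pluripotency markers used above, rose 220-fold (adjusted p = 3.48e-07), while Tgfbr3, the co-receptor betaglycan that presents TGF-beta2 to Tgfbr2, fell 6.82-fold (adjusted p = 0.000261) and the activin receptor Acvr2a fell 3.28-fold (adjusted p = 0.00358). Acvr2a was the 1 receptor of the list to fall under DOX (2.71-fold, adjusted p = 0.0298). Of 6 signal transducers, 2 rose and 1 fell in pluripotent arrays (median -0.039), again near the shares over all genes. Foxh1, the DNA-binding partner of Smad2 in Nodal signalling, rose 12.5-fold (adjusted p = 3.39e-06), Trim33 rose 1.497-fold (adjusted p = 0.00388), and Smad3 fell 2.32-fold (adjusted p = 0.000511). Smad2, between 9.18 and 9.62 on all 12 arrays, was not among those called.

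Most genes that hold or release latent TGF-beta fell as Ltbp1 did. Of 14 kept, 11 fell and 0 rose in pluripotent arrays, with a median of -2.22: the microfibril protein Fbn2 by 25.9-fold (adjusted p = 2.84e-05), Lrrc32, the cell-surface anchor GARP, by 13.7-fold (adjusted p = 0.00424), and Ltbp3 by 7.38-fold (adjusted p = 6.33e-05). Ltbp4, of the same family as Ltbp1, did not fall: it was at 8.75 to 9.39 in MEF and at 9.15 to 10.03 on the pluripotent arrays. Under DOX 4 of the list fell (limma), with Lrrc32 (11.6-fold, adjusted p = 0.0358), Ltbp3 (4.17-fold, 0.0337) and Emilin1 (4.06-fold, 0.0406) foremost. Of 13 inhibitors, 10 fell and 2 rose in pluripotent arrays (median -1.08) and 8 fell under DOX (median -0.83, beside 0.06 over all genes). Grem1, a secreted BMP antagonist, fell 9.71-fold (adjusted p = 0.00226) and 8.81-fold (0.0158), and Smad6, the BMP counterpart of Smad7, fell 5.51-fold (adjusted p = 0.000344) and 4.38-fold (0.0408). The activin-binding Fstl3 fell 5.97-fold in pluripotent arrays (adjusted p = 0.00014), and Fst, another activin antagonist, fell 4.55-fold under DOX (0.0182). Smad7 thus parted from Smad6, which was at 6.03 to 6.92 on the pluripotent arrays and 8.41 to 9.39 in MEF.

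All 18 response genes fell in pluripotent arrays (median -3.07), led by the matrix protein Postn (18.8-fold, adjusted p = 0.013), the actin-binding Tagln (18.0-fold, adjusted p = 0.006) and Thbs2 (15.5-fold, adjusted p = 0.00794). Under DOX 5 fell, among them Tagln (18.2-fold, adjusted p = 0.0122), the mesenchymal transcription factor Snai2 (8.45-fold, 0.0202) and Ccn2 (5.32-fold, 0.0235). Several of these genes are also fibroblast or smooth muscle markers (Col1a1, Col1a2, Acta2 and Tagln), so the list is not separate from those. Of the genes listed as the BMP branch, 10 of 14 fell and 1 rose in pluripotent arrays (median -1.48). Id2 (11.5-fold, adjusted p = 0.00173), Id3 (5.67-fold, 0.00132) and Bmp1 (5.39-fold, 0.000315) were foremost. Bmp1, counted in this list, encodes a protease and not a BMP ligand. Under DOX 2 of the list fell, Bmp4 (6.29-fold, 0.0352) and Bmpr1b (3.21-fold, 0.0206).

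The genes whose log2 signal ran most like that of each member were found over all 12 arrays by Pearson's r, as a description, since the arrays share states and genotypes. For Tgfb3 they were Fads3 and Ccdc80 (both r = 0.978) and Lgals1, which encodes galectin-1 (0.972). For Inhba they were the chemokine gene Ccl2 (0.978), Grem1 (0.967) and Myl9 (0.958). Tgfb2 ran closest to Hspg2, which encodes the matrix proteoglycan perlecan (0.970), Mapkbp1 (0.966) and Ecm1 (0.960), and Tgfb1 to Slc12a4 (0.968), Oaf (0.963) and Stx2 (0.962). For Ltbp1 the nearest were Magee1 (0.994), Actr1a (0.982) and Ids (0.982), and for Ltbp2 C1qtnf3 (0.984), Gpr176 (0.977) and Svep1 (0.968). The Grem1 named here is the BMP antagonist of the inhibitor list. Tgfbr2 was nearest to Mindy2 (0.979), Gbp7 (0.978) and Pam (0.975), Tgfbi to Tcf4 (0.950), Colec12 (0.947) and Cd302 (0.946), and Tgfbr1 to the Wnt antagonist gene Sfrp2 (0.965), Dnal1 (0.932) and Arxes2 (0.913). Smad7 had the lowest values, with Phf23 (0.920), Slc35b1 (0.910) and the clock gene Arntl (0.897).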

How the data were processed

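The values deposited by the authors are log2 signals of 35512 probe sets on 12 arrays, 3.11 to 13.99. How they were summarised and normalized is not given in the sources used here. Array medians differed by 0.122, more than the limit of 0.1, so the values were quantile normalized. Probe sets with 1 symbol (21789, of 23410 annotated) stood for 19938 genes, by highest mean. Genes above the array median on at least 1 array were kept (13044). The moderated statistics of limma (version 3.58.1, R 4.3.3, tables read by the data.table package, version 1.17.8) gave each difference, and p-values were adjusted by Benjamini-Hochberg over all genes kept. Arrays have no sequencing depth, and their number limits the precision. The code was tested on simulated data.

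The members and the gene lists were chosen with earlier results of these data known. Named besides the members are, in each list and comparison, the called genes with the 3 largest differences, and the 3 genes most like each member. Genes named for single levels (such as Smad2 or Cnn1) were picked after their values were seen. Alternatives were the values as deposited, no filter on dim genes, the mean of probe sets, leaving out the arrays of the earlier series or each array, 1 fit of 12 arrays, and genotype as a term. The position of Smad7 in the genome is not reported here.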

Additional observations from a re-analysis of the deposited data

Results flagged for a closer look

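Dixon's ratio, the gap between an extreme array and its nearest neighbour over the range of the group, was taken for the 10 members in the DOX and in the pluripotent group, 20 ratios in all, and passed its 95% limit for 2 members in the latter. For Ltbp1 it was 0.917 with WT ESC highest, and for Tgfbr2 0.832 with WT iPSC highest. Chance alone passes this limit in about 5% of groups, which is 1 of 20.

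In several intervals a member was lower in 1 genotype and higher in the other, with 1 array at each end, so the difference was not tested. The log2 change in flox/- cells minus that in WT cells from MEF to day 4 was -2.15 for Tgfbr2 and -2.08 for Tgfbi. From day 4 to day 8 it was -0.85 for Tgfb1 and 2.02 for Tgfbr1. From day 8 to iPSC it was 0.90 for Tgfb1, 3.15 for Tgfb2, -1.57 for Inhba, 2.33 for Ltbp1, -1.23 for Tgfbr1, 2.32 for Tgfbr2 and 0.40 for Smad7. The values that involve day 8 rest on the WT day 8 array, which stood apart from the other DOX arrays past day 4.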

How the results depend on the processing

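Between pluripotent and MEF arrays the 10 directions held under all alternatives, and the 9 calls too, except Inhba without -/- MEF. Between DOX and MEF arrays all directions held and the calls did not: 3165 genes were called without the arrays of the earlier series, 3561 with all 12 arrays in 1 fit, and 508, with 2 members, with genotype as a term. With no filter on dim genes 4 members were called, Ltbp1 being lost. Leaving out each array gave 150 to 3165 genes and 0 to 6 members. Between DOX and pluripotent arrays 0, 19 and 0 genes were called under these settings, and 0 to 1315 genes and 0 to 2 members on leaving out each array. Between iPSC and day 4, 824 genes and 2 members were called without the earlier arrays or without day 8, and 0 to 824 genes and 0 to 2 members on leaving out each array. The flox/- against WT directions all held.

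Signs turned only for differences that had not passed. Between DOX and pluripotent arrays Inhba was at 0.72, Ltbp2 at 0.56 and Tgfbr1 at 0.13 without the earlier arrays, and Tgfb1 at 0.065 with genotype as a term. On leaving out each array, Tgfb1 ran from -0.42 to 0.074, Inhba from -1.01 to 0.71, Ltbp2 from -0.53 to 0.31 and Tgfbr1 from -0.27 to 0.16. For day 4 against MEF, Tgfbr1 ran from -1.21 to 0.027, Tgfbr2 from -2.08 to 0.038 and Tgfbi from -2.02 to 0.25, and for iPSC against day 4 Tgfbr1 ran from -0.85 to 0.39. For -/- against WT, Inhba was at 0.48, Ltbp1 at 0.24 and Ltbp2 at 0.49 without the earlier arrays, and on leaving out each array Tgfb1 ran from -0.38 to 0.025, Inhba from -3.33 to 0.48, Ltbp1 from -1.51 to 0.24, Ltbp2 from -1.52 to 0.49, Tgfbr2 from -0.54 to 0.11 and Smad7 from -0.23 to 1.68. The cause of these turns was not tested. No pairing by culture or embryo was possible because the labels give no replicate numbers. Arrays of flox/- and WT cells were matched by stage only, and day 4, iPSC and MEF arrays by genotype only. No member lay below the lower quartile of any array, 4.68.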

Other observations

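The WT day 8 array differed from the other 11 in some genes of the BMP branch and of integrin activation, which were picked after their values were seen. Among those given here, Id2, Id3 and Bmp4 were also named above for other comparisons. Bmp2, a BMP ligand, was at 8.81 there and at 4.62 to 5.23 elsewhere. Itgb6, the subunit of an epithelial integrin that activates latent TGF-beta, was at 6.70 there and at 4.03 to 4.76 elsewhere. The BMP targets Id1 and Id2 were at 11.66 and 12.18 on this array, above all other arrays (next -/- MEF, at 10.89 and 11.78). Id4 was also at its highest there, at 10.58. The BMP branch did not rise as a whole: Id3, at 9.49, was below MEF (9.86 to 10.64), and Bmp4, at 8.41, was at its lowest of the 12 arrays. Nodal, at 6.24, and Tdgf1, at 4.49, were near MEF levels on the WT day 8 array (at most 6.04 and 5.02 in MEF).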
